A study of Oryza sativa with 12 samples.

Results

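The transcripts described here were abundant at 0H in rice embryonic axes and read much lower at 4H, and they ended at about the same level whether the seeds had been stored at 40 °C or at 25 °C. They are 51 of the 57258 probe sets of the Affymetrix Rice Genome Array, control probe sets left out, and they are called the shared-fall transcripts below. They were chosen on the measured values: a mean log2 signal of at least 7 in both 0H groups, a 4H minus 0H difference of -2.5 or lower at both temperatures, and 4H means less than 0.5 apart. Those falls, and the closeness of the 4H means, are therefore given as a description and were not tested. A total of 4818 probe sets had both 0H means at or above 7 and are called stored; the shared-fall transcripts are 1.06% of them.

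The study used total RNA from embryonic axes of mature Nipponbare rice seed, hybridised to 12 arrays in 4 groups of 3 numbered replicates. In the 40 °C groups, 4H and 0H, seeds equilibrated at 25 °C and 85% relative humidity for 3 days were then held at 40 °C and the same humidity; in the 25 °C control groups, 4H and 0H, they stayed at 25 °C. The labels give this storage as 14 days in the protocol and 15 days in the description, followed in all 4 groups by 3 days at 25 °C and 32% relative humidity. They do not define the suffixes 0H and 4H, and they do not say whether the replicates came from separate seed lots, so p-values measure only the spread between these arrays, which may be technical. The axes are dissected tissue that can carry traces of other seed parts, and a storage treatment at 45 °C that the labels mention was not analysed here.

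Dry seeds contain messenger RNAs laid down while the seed matured. Some of these stored messages are translated when the seed takes up water, and others are degraded as the axis turns to new transcription. Storage in warm, humid air is a laboratory way of ageing seeds, and stored RNA is among the molecules that such ageing is known to damage. The values below are log2 signals made with GCRMA, which puts all arrays on one scale, so a difference is relative to the rest of that array's RNA. In such a bulk sample, fewer cells of a type and less RNA per cell cannot be told apart.

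Only 35 of the 51 shared-fall transcripts (68.6%) were paired with a gene in the platform annotation, each with a different gene, against 4083 of the other 4767 stored probe sets (85.7%). The other 16 have no gene there and are called transcripts A to P, in order from the deepest to the shallowest mean fall. IDs that begin with OsAffx made up 8 of the 51 (15.7%), against 247 of the other stored probe sets (5.18%). IDs ending in _s_at or _x_at, which mark probes that match more than 1 transcript, made up 5 of the 51 (9.8%), against 18.9% of the other stored probe sets. Only 4 of the paired genes carry a short name: SAPK3, PARP3, ROS1C and ITPK4. They have 4 different roles. The 14 gene role lists that were compared were matched by gene symbol or synonym, so only these 4 could be placed in a list. That 12 of the 14 held no shared-fall transcript therefore says nothing about the roles of the rest of the 51.

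Across the 51 transcripts the change at 40 °C ranged from -3.79 to -2.501 with a median of -2.87, and the change at 25 °C ranged from -4.50 to -2.51 with a median of -2.81. As linear folds, signals were 5.66 to 13.9 times lower at 4H than at 0H after 40 °C, and 5.69 to 22.6 times lower after 25 °C. The other stored probe sets had median changes of -0.83 at 40 °C and -0.49 at 25 °C. For each of the 51, all 6 of the 4H arrays lay below all 6 of the 0H arrays, and the gap between them was 1.87 at its narrowest and 2.36 at the median. The falls that the rule required make such a separation likely, so it is a description. Its share over all tested probe sets was not counted. Of all 17650 probe sets tested, 46.3% were called lower at 4H after 40 °C and 42.0% after 25 °C, so a lower value at 4H was itself common on these arrays. Called higher at 4H were 41.0% after 40 °C and 39.9% after 25 °C.

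**Figure D1:**
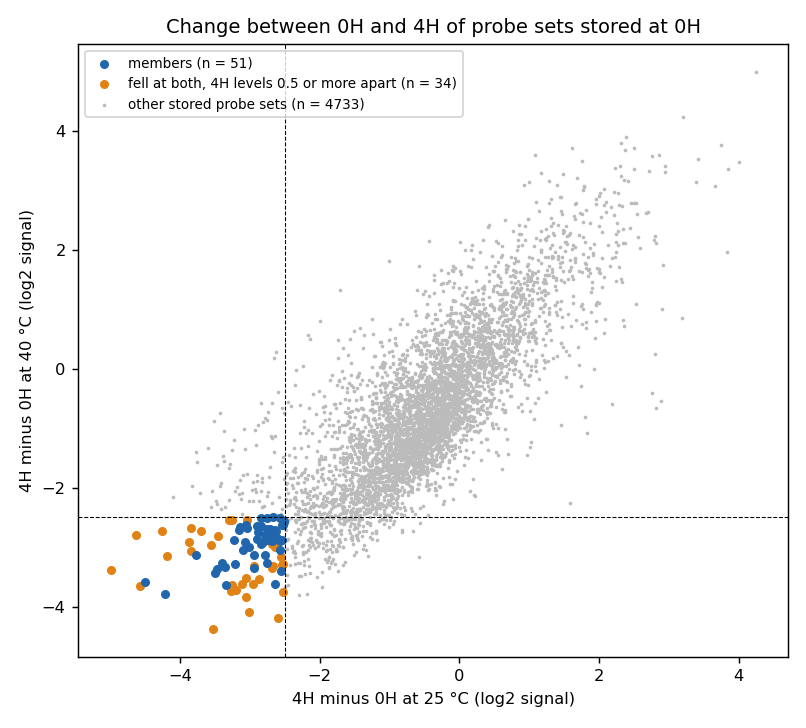
The 4H minus 0H change (log2 signal) at 25 °C is on the x axis and at 40 °C on the y axis, 1 point per stored probe set; blue points are the 51 shared-fall transcripts (members) and orange points the 34 that fell as far at both temperatures but ended 0.5 or more apart. Dashed lines mark -2.5, and the blue points sit near the inner corner of the lower left quadrant, with changes of -2.501 to -3.79 at 40 °C and -2.51 to -4.50 at 25 °C.

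Falls this deep were more frequent after storage at 40 °C: 309 stored probe sets (6.41%) reached -2.5 after 40 °C and 169 (3.51%) after 25 °C. A total of 85 reached it at both temperatures. Of these, 51 had 4H means less than 0.5 apart and 34 did not, of which 20 had the lower 4H mean after 40 °C and 14 after 25 °C. A further 224 stored probe sets reached -2.5 after 40 °C alone, and 84 after 25 °C alone. A 4H difference below 0.5 was found for 2126 stored probe sets (44.1%).

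The fall was slightly deeper after 40 °C for 26 of the 51 and after 25 °C for the rest. The change at 40 °C minus the change at 25 °C had a median of -0.02 and ranged from -0.97 to 0.91, and 46 of the 51 had changes within 0.5 of each other. The 4H means were within 0.1 of each other for 16. Among all tested probe sets, 65.0% had changes that differed between the temperatures by limma's interaction contrast at an adjusted p under 0.05. The rule selected on that contrast for the shared-fall transcripts, so their own share is not given.

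SAPK3 (LOC4349411) encodes a kinase of the SnRK2 family, the stress-activated kinases that carry osmotic stress and abscisic acid signals. It read 5.31, 4.86 and 4.95 in the 40 °C 4H arrays and 5.35, 5.40 and 5.56 in the 25 °C 4H arrays, against 8.24, 8.25 and 8.04 in the 40 °C 0H arrays and 8.41, 8.33 and 8.38 in the 25 °C 0H arrays. Its changes were -3.14 at 40 °C and -2.94 at 25 °C. The 40 °C arrays lay below the 25 °C arrays at 4H and again at 0H. The 0H difference was -0.20.

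PARP3 (LOC4329546) belongs to the poly(ADP-ribose) polymerases, enzymes that attach ADP-ribose chains to proteins, among them proteins at broken DNA. In Arabidopsis, PARP3 is the family member known for its expression in seeds. The rice probe set read 8.10, 7.88 and 7.82 in the 40 °C 4H arrays and 7.74, 7.81 and 8.02 in the 25 °C 4H arrays, against 10.70, 10.87 and 10.82 in the 40 °C 0H arrays and 10.69, 10.85 and 10.71 in the 25 °C 0H arrays. The temperatures overlapped at both 4H and 0H. The changes were -2.87 at 40 °C and -2.89 at 25 °C, and the probe set still read above 7.7 in every 4H array, so the transcript remained well detected.

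ROS1C (also DNG701, LOC4338940) encodes a DNA glycosylase that removes methylated cytosine from DNA. It read 4.37, 4.37 and 4.35 in the 40 °C 4H arrays and 4.72, 4.86 and 4.62 in the 25 °C 4H arrays, against 7.47, 7.34 and 7.42 in the 40 °C 0H arrays and 7.36, 7.31 and 7.22 in the 25 °C 0H arrays. Its changes were -3.05 at 40 °C and -2.56 at 25 °C. The 3 arrays at 40 °C 4H all lay below the 3 at 25 °C 4H, while the 0H arrays overlapped.

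ITPK4 (LOC4329322) encodes an inositol phosphate kinase, of a family that acts on the route to phytic acid, the phosphate store of cereal grain. It read 4.80, 4.65 and 4.93 in the 40 °C 4H arrays and 4.78, 4.56 and 4.83 in the 25 °C 4H arrays, against 7.69, 7.77 and 7.62 in the 40 °C 0H arrays and 7.13, 7.58 and 7.49 in the 25 °C 0H arrays. The 4H arrays of the 2 temperatures overlapped, and at 0H the 40 °C arrays lay above the 25 °C arrays. The changes were -2.90 at 40 °C and -2.67 at 25 °C, and the 0H difference was 0.29.

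The deepest mean fall belonged to transcript A. It read 4.73, 4.16 and 4.56 in the 40 °C 4H arrays and 3.76, 3.95 and 4.64 in the 25 °C 4H arrays, against 8.14, 8.16 and 7.91 in the 40 °C 0H arrays and 8.50, 8.71 and 8.63 in the 25 °C 0H arrays. The changes were -3.59 at 40 °C and -4.50 at 25 °C. Its 40 °C 0H arrays all lay below its 25 °C 0H arrays, a difference of -0.54.

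Transcript B came next, with 5.17, 4.86 and 5.04 in the 40 °C 4H arrays and 4.88, 5.16 and 5.15 in the 25 °C 4H arrays, against 8.83, 8.94 and 8.67 in the 40 °C 0H arrays and 9.17, 9.18 and 9.49 in the 25 °C 0H arrays. It reached the same 4H level at both temperatures, with overlapping arrays, from 0H levels that did not overlap. Transcript C read 4.59, 4.12 and 3.92 in the 40 °C 4H arrays and 4.62, 4.34 and 4.50 in the 25 °C 4H arrays, against 7.80, 7.92 and 7.79 in the 40 °C 0H arrays and 7.70, 8.02 and 7.78 in the 25 °C 0H arrays. Here the temperatures overlapped at 4H and at 0H.

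LOC4330488 read 4.44, 4.01 and 4.21 in the 40 °C 4H arrays and 3.95, 4.11 and 3.76 in the 25 °C 4H arrays, against 7.71, 7.71 and 7.55 in the 40 °C 0H arrays and 7.32, 7.40 and 7.57 in the 25 °C 0H arrays. Transcript D read 5.75, 5.49 and 5.50 in the 40 °C 4H arrays and 4.86, 5.30 and 5.22 in the 25 °C 4H arrays, against 8.72, 8.64 and 8.80 in the 40 °C 0H arrays and 8.90, 9.01 and 8.76 in the 25 °C 0H arrays. Of this pair, only transcript D had temperature groups that were apart at 4H, with the 40 °C arrays above. LOC4334523 read 5.44, 5.40 and 5.62 in the 40 °C 4H arrays and 5.13, 5.17 and 5.85 in the 25 °C 4H arrays, against 8.84, 8.84 and 8.88 in the 40 °C 0H arrays and 8.80, 8.89 and 8.85 in the 25 °C 0H arrays. Its 6 arrays at 0H spanned less than 0.1, and its widest group was 25 °C 4H.

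LOC4343782 read 4.32, 4.11 and 4.08 in the 40 °C 4H arrays and 3.73, 3.82 and 4.37 in the 25 °C 4H arrays, against 7.45, 7.55 and 7.53 in the 40 °C 0H arrays and 7.30, 7.33 and 7.37 in the 25 °C 0H arrays. LOC4333479, the most abundant of the 10 with the deepest falls, read 7.97, 7.67 and 7.97 in the 40 °C 4H arrays and 7.66, 7.45 and 8.25 in the 25 °C 4H arrays, against 11.15, 11.10 and 11.18 in the 40 °C 0H arrays and 11.16, 11.13 and 11.28 in the 25 °C 0H arrays. Both were highest in replicate 3 within the 25 °C 4H group.

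Transcript E read 4.59, 4.59 and 4.76 in the 40 °C 4H arrays and 4.61, 4.59 and 5.04 in the 25 °C 4H arrays, against 7.93, 8.01 and 7.88 in the 40 °C 0H arrays and 8.00, 8.00 and 7.88 in the 25 °C 0H arrays. LOC4334385 read 4.33, 3.77 and 3.86 in the 40 °C 4H arrays and 3.94, 4.14 and 4.52 in the 25 °C 4H arrays, against 7.34, 7.33 and 7.34 in the 40 °C 0H arrays and 7.14, 7.09 and 7.16 in the 25 °C 0H arrays. Its 40 °C 0H arrays lay above its 25 °C 0H arrays, by 0.20 in the mean.

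**Figure D2:**
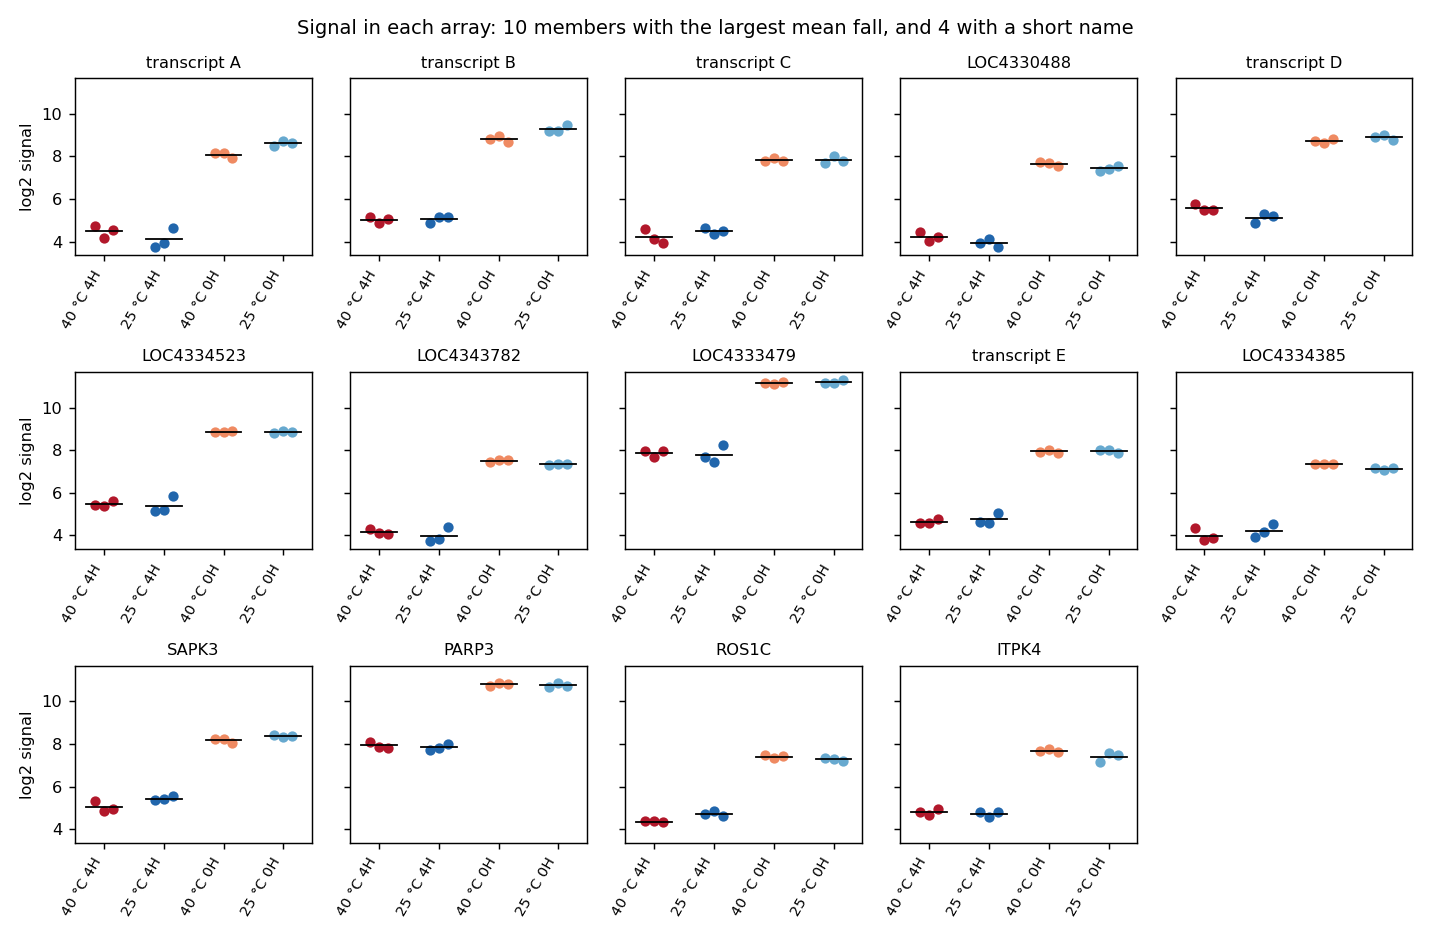
Log2 signal (y axis) of each array in the 4 groups (x axis), for the 10 shared-fall transcripts with the deepest mean fall and for SAPK3, PARP3, ROS1C and ITPK4; points are replicates 1, 2 and 3 from left to right and bars are group means. In every panel the 6 arrays at 4H lie below the 6 at 0H, and LOC4333479 and PARP3 stay above 7 at 4H.

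The level reached at 4H varied widely among the 51. The 4H means ran from 3.99 to 9.01 after 40 °C and from 3.94 to 8.94 after 25 °C, while the 0H means ran from 7.30 to 11.93 after 40 °C and from 7.08 to 11.75 after 25 °C. A log2 signal of 4 is the limit used here to keep a probe set for testing. No shared-fall transcript had all 6 of its 4H arrays below 4, 5 had at least 1 such array, 3 had a 4H group mean below 4, and 7 had both 4H means at 7 or higher. The highest at 4H was transcript J, which averaged 9.01 ± 0.26 at 40 °C 4H and 8.94 ± 0.26 at 25 °C 4H, against 11.93 ± 0.04 at 40 °C 0H and 11.75 ± 0.14 at 25 °C 0H (SD, n = 3 each).

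Members just inside the thresholds were little different from probe sets just outside. On the 0H level the nearest inside were LOC4340040, LOC4334385 and transcript P, with lower 0H means of 7.08, 7.13 and 7.23. Nearest outside were LOC9267037, LOC4347873 and a probe set with no gene in the annotation, with 6.90, 6.90 and 6.88. On the fall, LOC4340220, LOC4340120 and LOC4329338 had as the smaller of their changes -2.501, -2.505 and -2.507, and LOC4328369, LOC9271739 and LOC4352824 just missed with -2.4996, -2.493 and -2.476. On the 4H difference, LOC4351088, LOC4340120 and transcript F had 0.49, 0.46 and 0.46, and another probe set with no gene, LOC4344351 and LOC4347535 had 0.51, 0.54 and 0.54. The probe set without a gene, just outside on the 0H level, changed by -4.58 at 40 °C, further than any shared-fall transcript at that temperature, and by -4.32 at 25 °C. Its 4H means were 2.76 at 40 °C and 2.56 at 25 °C, below the log2 limit of 4.

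At 0H the 40 °C and 25 °C groups give the stored level of each transcript after the 2 storage treatments. The rule used the 0H means for the level and for both falls, and it required close 4H means, so the 0H difference is not independent of the rule. It is given here as a description, without a p for single transcripts, and nothing about storage is read from the counts. Of the 51, 5 (9.8%) were called at 0H by limma at an adjusted p under 0.05, 2 higher and 3 lower after 40 °C, beside 17.7% of all 17650 tested probe sets (5.99% higher and 11.7% lower) and 17.1% of the other stored probe sets. Those called higher numbered 0 when replicate 1 or 2 of 25 °C 0H or any replicate of 40 °C 0H was left out, and 4 without replicate 3 of 25 °C 4H. Those called lower numbered 1 without replicate 3 of 40 °C 0H.

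Transcript F was the highest at 0H after 40 °C relative to 25 °C, with 7.72, 7.77 and 7.87 in the 40 °C 0H arrays against 7.13, 7.23 and 7.48 in the 25 °C 0H arrays, a difference of 0.51 ± 0.15 (SE). LOC4328975 read 8.53, 8.58 and 8.63 in the 40 °C 0H arrays against 8.16, 8.24 and 8.42 in the 25 °C 0H arrays, a difference of 0.31 ± 0.10 (SE). In both, the 3 arrays at 40 °C 0H lay above the 3 at 25 °C 0H.

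LOC4351088 lay the other way, with 9.24, 9.17 and 9.44 in the 40 °C 0H arrays against 9.74, 9.64 and 9.87 in the 25 °C 0H arrays, a difference of -0.46 ± 0.09 (SE). Transcript H had 10.76, 10.77 and 10.62 in the 40 °C 0H arrays against 11.11, 11.16 and 11.19 in the 25 °C 0H arrays, a difference of -0.43 ± 0.10 (SE). The difference of transcript B, whose arrays are given above, was -0.47 ± 0.12 (SE). In these 3 the arrays at 40 °C 0H all lay below those at 25 °C 0H.

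Temperature groups that did not overlap at 0H were found for 17 of the 51 (33.3%), beside 37.1% of all tested probe sets. The 0H difference ranged from -0.54 to 0.51 over the 51, with a median of 0.03, and 30 of them had the higher mean after 40 °C.

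**Figure D3:**
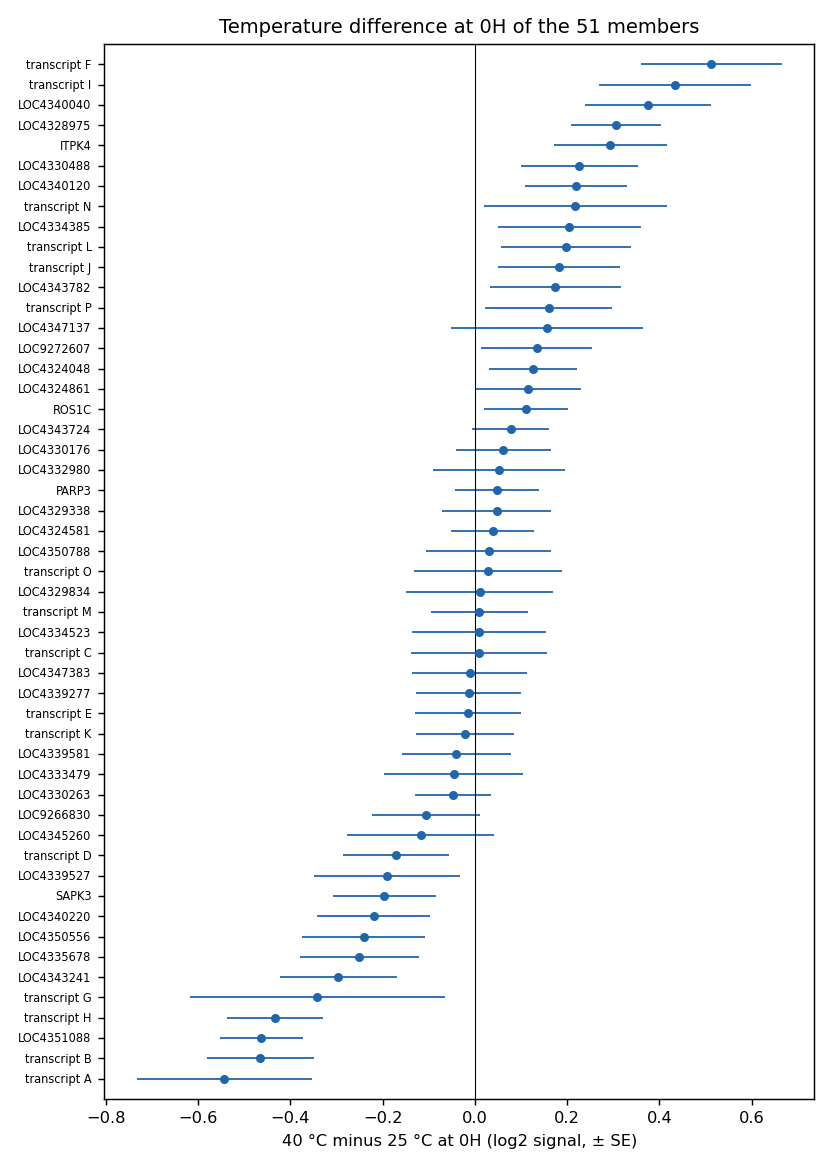
The 40 °C minus 25 °C difference at 0H (x axis, log2 signal) for each of the 51 shared-fall transcripts (y axis), ordered by size; points are differences of group means and bars the standard error from the limma fit. The differences run from -0.54 for transcript A to 0.51 for transcript F, and 30 of the 51 lie above 0.

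Among stored probe sets that fell by 2.5 or more after 40 °C alone, 24 of 224 (10.7%) were called at 0H, 11 higher and 13 lower. After 25 °C alone it was 22 of 84 (26.2%), 18 higher and 4 lower, and among the 34 that fell at both temperatures to 4H levels further apart it was 7 (20.6%). Each of these groups was selected with the same arrays, so the shares are a description.

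SAPK3, ITPK4 and PARP3 belong to gene families whose other members are on the array, and these families were looked up after the shared-fall transcripts' annotation had been read. None of the other SnRK2 kinases fell as far as SAPK3. Of 9 tested, 5 fell and 3 rose after 40 °C, and 6 fell and 2 rose after 25 °C, by limma at an adjusted p under 0.05. SAPK9 came nearest, with changes of -1.08 at 40 °C and -2.20 at 25 °C, and it was also lower at 0H after 40 °C (difference -0.52, limma adjusted p = 0.00942).

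SAPK5 went the other way. Its signal averaged 10.35 ± 0.01 at 40 °C 4H and 7.83 ± 0.32 at 25 °C 4H, against 5.03 ± 0.11 at 40 °C 0H and 4.65 ± 0.20 at 25 °C 0H (SD, n = 3 each). Those are changes of 5.32 at 40 °C and 3.18 at 25 °C, and the 4H arrays lay far above the 0H arrays at each temperature. SAPK6 rose too, by 1.41 at 40 °C and 0.85 at 25 °C. SAPK2 rose by 0.90 at 40 °C and fell slightly at 25 °C (change -0.18), whereas SAPK7 passed the test at neither temperature, with changes of 0.03 and -0.07.

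Of the 4 other inositol phosphate kinases, 3 rose and 1 fell after 40 °C, and 2 rose and 1 fell after 25 °C. ITPK3 was the only one of them to fall, with changes of -0.42 at 40 °C and -1.84 at 25 °C. ITPK1 rose by 1.997 at 40 °C and by 1.16 at 25 °C, and ITPK5 by 1.01 and 0.46 in the same order. ITPK2 rose by 0.35 at 40 °C and did not pass the test at 25 °C, with a change of 0.03. ITPK5 was also higher at 0H after 40 °C (difference 0.39, limma adjusted p = 0.0109). PARP1, the other polymerase matched on the array, fell too, with changes of -2.75 at 40 °C and -1.81 at 25 °C. It averaged 3.31 at 40 °C 4H and 3.64 at 25 °C 4H, both below log2 4, against 6.05 at 40 °C 0H and 5.45 at 25 °C 0H. At 0H it was higher after 40 °C (difference 0.60, limma adjusted p = 0.0145).

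**Figure D4:**
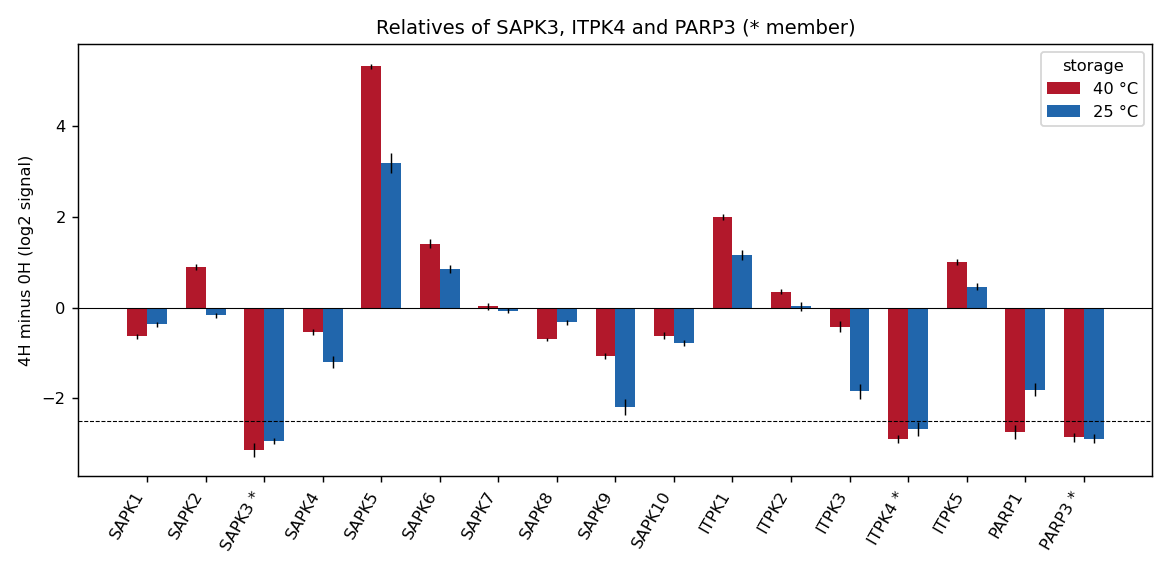
The 4H minus 0H change (y axis, log2 signal) at 40 °C (red) and 25 °C (blue) for the SnRK2 kinases, inositol phosphate kinases and poly(ADP-ribose) polymerases on the array (x axis), with asterisks on SAPK3, ITPK4 and PARP3; bars are differences of group means and error lines the standard error from the 3 replicates of each group. The 3 marked genes were chosen for passing the dashed line at -2.5 at both temperatures. None of their relatives passes it at both, and SAPK5 stands highest at 5.32 and 3.18.

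SAPK3 is the 1 shared-fall transcript matched to the list of abscisic acid signalling and metabolism genes. That list was made by gene name and takes in phosphatases of type 2C and leucine zipper (bZIP) factors whatever their role. Its counts describe the list and not the abscisic acid pathway as such. The other 73 tested genes of that list moved in both directions: 36 fell and 32 rose after 40 °C, and 38 fell and 24 rose after 25 °C, with median changes of -0.15 and -0.25. Over all tested probe sets the medians were -0.13 at 40 °C and -0.04 at 25 °C. Of those probe sets, 46.3% fell and 41.0% rose after 40 °C, and 42.0% fell and 39.9% rose after 25 °C. At 0H, 6 of the 73 were higher and 5 lower after 40 °C, beside 5.99% higher and 11.7% lower of all tested probe sets. Of the 28 that were stored, none fell by 2.5 at both temperatures, beside 1.76% of all stored probe sets.

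The 3 genes with the deepest mean falls were all phosphatases of type 2C, the class to which most of the list belongs. OsPP2C59 read 7.85, 7.85 and 7.82 in the 40 °C 4H arrays and 7.84, 7.90 and 8.36 in the 25 °C 4H arrays, against 10.21, 10.28 and 10.37 in the 40 °C 0H arrays and 10.36, 10.30 and 10.35 in the 25 °C 0H arrays. It fell at both temperatures, with changes of -2.45 at 40 °C and -2.30 at 25 °C, to overlapping 4H levels. OsPP2C05 fell with changes of -2.68 and -1.98 in the same order, and OsPP2C21 with changes of -1.94 and -2.06. The largest rises in the list were those of bZIP52, a leucine zipper factor, by 5.26 at 40 °C and by 5.57 at 25 °C, and of SAPK5.

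Late embryogenesis abundant proteins and dehydrins are laid down in the maturing seed and are typical of stored messages. None of the 51 was matched to their list, but matching used gene symbols or synonyms, which only 4 of the 51 carry. Whether the rest of the 51 include such proteins is not known. All 7 genes on the list were stored and all 7 fell at both temperatures, with median changes of -0.65 at 40 °C and -0.40 at 25 °C. Of all tested probe sets, 46.3% fell after 40 °C and 42.0% after 25 °C. None of the 7 fell by 2.5 at both, beside 85 of all 4818 stored probe sets (1.76%).

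Other probe sets of the same genes give a second reading. The genes of the 35 annotated transcripts have 13 further probe sets, of which 2 were stored. The one for LOC4350788 had changes of -2.54 at 40 °C and -3.04 at 25 °C, each past the threshold, with 4H means 0.60 apart. The member probe set for that gene was among the least stable choices and was kept in 7 of the 12 selections that left out 1 array. The one for LOC4351088 averaged 8.24 at 40 °C 4H and 8.84 at 25 °C 4H, against 10.87 at 40 °C 0H and 10.82 at 25 °C 0H, with changes of -2.62 and -1.98. Its 0H difference was 0.05, beside -0.46 for the member probe set of that gene. A further probe set for LOC4340220 was tested but not stored, and it did not show the shared fall. Its changes were -0.21 at 40 °C (limma adjusted p = 0.361) and -1.78 at 25 °C, with 4H means 1.39 apart. Its 0H means were low, at 4.62 after 40 °C and 4.79 after 25 °C, not far above the limit for testing. The second ROS1C probe set averaged 0.84 at 40 °C 4H and 0.94 at 25 °C 4H, against 1.37 at 40 °C 0H and 1.44 at 25 °C 0H, far below the limit for testing.

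Genes next to those of the shared-fall transcripts were looked up by their order in the RefSeq table. Of 45 neighbours with a probe set, 16 were stored, 1 fell by 2.5 at both temperatures and none was itself a shared-fall transcript. Of all stored probe sets, 1.76% fell by 2.5 at both temperatures and 1.06% are shared-fall transcripts. With shares this low, the counts say nothing particular about neighbours. The 1 was LOC4349410, beside SAPK3. It read 5.13, 4.53 and 5.37 in the 40 °C 4H arrays and 6.03, 6.13 and 6.37 in the 25 °C 4H arrays, against 8.82, 8.79 and 8.69 in the 40 °C 0H arrays and 8.80, 8.69 and 8.61 in the 25 °C 0H arrays. Its changes were -3.76 and -2.52, and its 4H arrays were lower after 40 °C with no overlap. LOC4347138, beside LOC4347137, had changes of -3.67 at 40 °C and -2.496 at 25 °C and was short of the rule at 25 °C.

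How far the choice of transcripts depends on the arrays was read by leaving out the replicates with 1 number from all 4 groups, choosing again, and reading the result in the arrays left out. Chosen without replicate 1 were 46 probe sets, of which 22 met all the 4H and fall criteria in the replicate 1 arrays. Chosen without replicate 2 were 40, of which 30 did so in the replicate 2 arrays, and without replicate 3 there were 56, of which 20 did so. In the replicate 1 arrays, 35 of the 46 reached a change of -2.5 at 40 °C, 44 reached it at 25 °C and 27 had 4H values less than 0.5 apart. In the replicate 2 arrays it was 37, 36 and 35 of the 40 in the same order, and in the replicate 3 arrays 47, 30 and 35 of the 56. The smallest change in any left-out array pair was -2.21 at 40 °C and -1.70 at 25 °C. The median 40 °C minus 25 °C differences at 4H were 0.43 in replicate 1, 0.02 in replicate 2 and -0.34 in replicate 3.

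Replicate 3 was the highest of the 25 °C 4H arrays for 40 of the 51 transcripts, and replicate 1 was the highest of the 40 °C 4H arrays for 37 (72.5%). Among the other stored probe sets the shares were 51.9% and 27.4%. Among the 34 of these that fell as far at both temperatures, to 4H levels further apart, they were 67.6% and 61.8%. The pattern was thus not particular to the 51. The members' median deviation from the group mean was 0.19 in replicate 3 of 25 °C 4H and 0.13 in replicate 1 of 40 °C 4H, against 0.04 and -0.01 for the remaining stored probe sets. When single arrays were left out in turn, 45 to 58 probe sets met the rule, and 30 of the 51 met it in all 12 of these selections. PARP3, ROS1C and ITPK4 were among those 30, and SAPK3 was kept in 11.

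**Figure D5:**
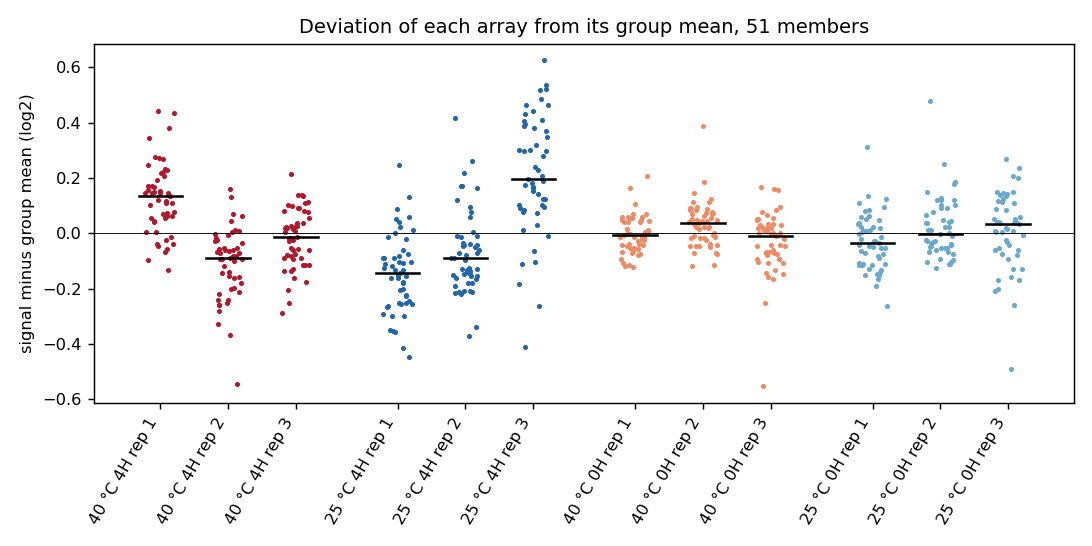
Log2 signal minus the group mean (y axis) in each of the 12 arrays (x axis), 1 point per shared-fall transcript, with the median as a bar. At 4H the points of replicate 1 at 40 °C and replicate 3 at 25 °C lie mostly above 0, with medians of 0.13 and 0.19, and the 0H arrays have medians closer to 0.

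Replicate 3 of 25 °C 4H and replicate 3 of 40 °C 0H stood apart in ribosomal RNA. The 18S control probe set read 6.82 in that 25 °C 4H array, against 11.04 and 11.06 in the other replicates of its group, and 7.87 in that 40 °C 0H array, against 10.17 and 10.97. The 28S control read 9.82 in that 25 °C 4H array, against 11.48 and 11.63, and 10.58 in that 40 °C 0H array, against 11.94 and 12.07. The summed signal of the endosperm markers (7 of 9 listed symbols matched, on 6 probe sets) was 10.99 on the log2 scale in replicate 3 of 25 °C 4H, against 9.69 and 10.27 in the others of that group. Over the groups, that sum ranged from 10.36 to 10.75 at 40 °C 4H, from 9.69 to 10.99 at 25 °C 4H, from 11.18 to 11.28 at 40 °C 0H and from 9.53 to 10.51 at 25 °C 0H. The glutelin GluB4 read near 1 in all 4 groups. The embryo markers (4 of 8 listed, on 3 probe sets) summed to 12.40 to 12.50 at 40 °C 4H and 12.37 to 12.47 at 25 °C 4H. At 0H they summed to 12.48 to 12.59 after 40 °C and 12.50 to 12.58 after 25 °C. That sum mostly reflects OsEM, the highest of them. OSH1 averaged 3.78 at 40 °C 4H and 5.79 at 25 °C 4H, against 6.47 and 6.37 at 0H. VP1 went the other way, with 9.89 at 40 °C 4H and 9.47 at 25 °C 4H, against 8.04 and 7.82 at 0H. The α-amylases, which mark aleurone and scutellum (5 of 6 listed, on 4 probe sets), summed to 9.12 to 9.42 at 40 °C 4H, 9.87 to 10.47 at 25 °C 4H, 9.30 to 9.73 at 40 °C 0H and 9.16 to 9.33 at 25 °C 0H. That sum combines probe sets that moved in opposite directions. AMY1A averaged 8.95 at 40 °C 4H and 9.91 at 25 °C 4H, against 4.62 and 4.08 at 0H. AMY3E fell, with 6.498 at 40 °C 4H and 7.77 at 25 °C 4H, against 9.26 and 9.02 at 0H. AMY3D rose like AMY1A, and AMY1.2 fell like AMY3E. The sum is therefore not read as an amount of tissue.

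Readings of RNA integrity differed between the 0H groups by amounts that depended on the control gene. The Gapdh control's 3′ probe set exceeded its 5′ probe set by 2.77 ± 0.20 at 40 °C 4H and 2.34 ± 0.09 at 25 °C 4H, and by 3.66 ± 0.29 at 40 °C 0H and 2.24 ± 0.17 at 25 °C 0H (SD, n = 3 each). For Actin it was 2.95 ± 0.15 at 40 °C 4H and 2.97 ± 0.16 at 25 °C 4H, and 3.33 ± 0.14 at 40 °C 0H and 2.44 ± 0.06 at 25 °C 0H. For Ubiquitin it was -0.60 ± 0.09 at 40 °C 4H and -0.62 ± 0.05 at 25 °C 4H, and -0.52 ± 0.04 at 40 °C 0H and -0.66 ± 0.02 at 25 °C 0H. The spiked poly-A controls averaged 5.226 over the 40 °C 4H arrays and 3.297 over the 25 °C 4H arrays. Those 4H groups did not overlap, with the 40 °C arrays above. At 0H these controls averaged 8.82, 8.85 and 4.83 in the 40 °C arrays, against 4.56, 4.98 and 3.52 in the 25 °C arrays. Replicates 1 and 2 of 40 °C 0H thus stood apart. Without those 2 arrays the rule chose 50 probe sets, 46 of them among the 51, and none of the 51 was called at 0H. The part of these readings in the results was not tested.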

How the data were processed

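Values were taken from the authors' deposited table of log2 signals, 1 column per array, made with GCRMA per the submitters' processing notes, which give no version. No label states the base of the logarithm, and base 2 fits the range of the values. GCRMA corrects background by probe sequence, normalizes across arrays and summarises each probe set, so low values are compressed and a loss shared by all transcripts would not be seen. The 12 arrays were grouped by their titles. The number of arrays limits the precision.

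Group means were fitted to all 12 arrays with limma 3.58.1 in R 4.3.3 (lmFit, eBayes with a variance trend, 8 residual degrees of freedom, two-sided, Benjamini-Hochberg adjusted p under 0.05 over 17650 probe sets above log2 4 in at least 3 arrays). The counts, lists and plots were made in Python 3.11.15 (pandas 2.3.3, numpy 2.4.6, matplotlib 3.10.9). On simulated data the fit of the 0H comparison recovered 87 of 100 changes of 1 log2 unit and 100 of 100 changes of 2, with 14 false calls among 201.

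The members, the gene lists and the families were chosen with earlier results of these data known. Members were named if among the 10 deepest mean falls, if they carried a short name, if called at 0H or if nearest a threshold, and non-members of the abscisic acid list by the 3 deepest falls and 2 largest rises. The 14 lists were matched by gene symbol or synonym after the annotation tables were read, since no gene descriptions were used, with 1 probe set per gene, that with the highest mean. Names come from the platform annotation and a RefSeq table of assembly ASM3414082v1, used for names and gene order only. No coordinates, promoter or protein sequences were used. Same-numbered replicates correlated at 0.23, 0.13 and 0.42 between 25 °C 4H and 25 °C 0H, all above the limit of 0.1 for treating them as pairs. Between 40 °C 0H and 25 °C 0H they did so at 0.03, 0.096 and 0.14, where the first and second missed it. Between 40 °C 4H and 40 °C 0H they did so at -0.05, 0.102 and 0.17, where the first missed it. Some arrays of different number passed the limit too. Among them were replicates 1 and 2 (0.19) and 2 and 1 (0.20) of 25 °C 4H and 25 °C 0H. Replicate 1 of 40 °C 4H and replicate 2 of 40 °C 0H gave 0.24. The correlations thus do not settle whether the arrays are paired by number.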

Additional observations from a re-analysis of the deposited data

Results flagged for a closer look

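For 12 relatives of SAPK3, ITPK4 and PARP3 the 4H minus 0H change differed between the temperatures by limma's interaction contrast, as it did for 65.0% of all tested probe sets. The values are the change at 40 °C minus the change at 25 °C on the log2 scale. Among the SnRK2 kinases the difference was 2.14 for SAPK5 (SE 0.194, limma adjusted p = 6.09e-07), 1.07 for SAPK2 (SE 0.101, limma adjusted p = 8.43e-07) and 1.12 for SAPK9 (SE 0.172, limma adjusted p = 6.21e-05). It was 0.66 for SAPK4 (limma adjusted p = 0.00232) and 0.56 for SAPK6 (limma adjusted p = 0.00221). Differences of the other sign were found for SAPK1, at -0.26 (limma adjusted p = 0.0216), and SAPK8, at -0.38 (limma adjusted p = 0.00318).

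All 4 other inositol phosphate kinases had positive differences. They were 1.42 for ITPK3 (limma adjusted p = 2.59e-05), 0.83 for ITPK1 (limma adjusted p = 4.36e-05), 0.55 for ITPK5 (limma adjusted p = 0.00239) and 0.32 for ITPK2 (limma adjusted p = 0.0228). PARP1 had -0.93 (SE 0.214, limma adjusted p = 0.00156), and its 4H means lie below log2 4. SAPK7 and SAPK10 did not pass the test, with differences of 0.10 (limma adjusted p = 0.499) and 0.17 (limma adjusted p = 0.207).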

How the results depend on the processing

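The count of probe sets meeting the rule was 31 with a 0H level of 8, 131 with a fall of 2, 10 with a fall of 3 and 30 with a 4H difference of 0.25, as the thresholds themselves set, and 40 to 58 when arrays were left out. Quantile normalization gave 57, of which 46 were among the 51, and median centring gave 62, of which 48 were. With a limit of log2 5 in place of 4, 10 members had all 6 of the 4H arrays below it and 22 had at least 1, and with a limit of log2 3 none had any. The median difference of the 2 falls over the members was between -0.0648 and 0.103 when arrays were left out, and 0.103 without replicate 3 of 25 °C 4H, a change of sign from -0.02.

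At 0H the calls over all probe sets numbered 3129, and 5558 with array weights, 888 without replicates 1 and 2 of 40 °C 0H together (an alternative added after seeing the data) and 2079 to 3847 when single arrays were left out. Members called higher numbered 0 with no filter, 1 with eBayes without trend, 5 with array weights, 4 with only the 0H groups, 0 without replicates 1 and 2 of 40 °C 0H and 0 to 4 when single arrays were left out. Members called lower numbered 6 with array weights, 5 with only the 0H groups, 0 without replicates 1 and 2 of 40 °C 0H and 1 to 4 when single arrays were left out. With the replicate number as a block, 4 members were called higher and 3 lower at 0H. Among the family genes, SAPK10 gained a call at 0H (limma adjusted p = 0.0479, against 0.0941 without the block), and no other call at 0H, 40 °C or 25 °C changed. In the abscisic acid list the block gave 38 falls and 25 rises at 25 °C, and 7 higher and 7 lower at 0H, against 6 and 5 without it. In the seed storage list it gave 6 falls at 40 °C against 3, 4 rises at 25 °C against 0, and 3 higher at 0H against 2, and in the list of RNA and chromatin genes 0 higher at 0H against 1. The cause of these moves was not tested. Of 306 comparisons of the 0H difference for single named members, 284 had the same call, 20 lost it and 2 gained it. The sign changed in 10, for transcripts C and E and LOC4334523, all uncalled and within 0.0576 of 0. The comparisons of promoter motifs and protein features were not run, since no sequence tables were used here.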
